A study of Mus musculus with 2 samples.

Results

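The interferon regulatory factors (IRFs) are a family of transcription factors, and 8 of them were examined here: Irf1, Irf2, Irf3, Irf4, Irf5, Irf7, Irf8 and Irf9. They were found as the non-control spots whose gene name in the scanner files is the symbol, or, for Irf9, the older name Isgf3g. The 8 genes were covered by 12 probes, out of 16610 genes measured on both arrays. Skin was taken from C3H/HeN male mice 61 days old, whose back hair had been plucked 5 days earlier to start anagen, when hair follicles grow. On day 4 the mice received 1 µg of FGF18, a secreted fibroblast growth factor of the hair follicle, or only phosphate-buffered saline (PBS), under the skin, and full-thickness dorsal skin was collected 24 h later. The series asked which genes local FGF18 affects. Both groups shared the strain, sex, age, plucking and injection; no genotype other than the strain is given, and the PBS sample is titled telogen although its other labels give anagen.

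Each group was 1 single-colour array, hybridised with poly(A) RNA. By the series design each group was 1 RNA pool, whereas the extract protocol has mice extracted separately and mentions 3 mice, without saying whether that is the number per group or whether the extracts were then mixed. With 1 array a group no test was possible, the differences have no replicate check, the number of arrays limits the precision, and every ratio compares these 2 arrays. The share of the 43379 non-control spots that stood well above background was 62.4% for FGF18 and 61.5% for PBS, with 0 saturated spots. The labelled tissue was checked by its markers: Krt14, a basal keratin, read 141000 with FGF18 and 123000 with PBS, and all 7 keratinocyte and 6 fibroblast markers were well above background on both.

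IRF proteins share a DNA-binding domain that recognises GAAA repeats in the promoters of interferon and interferon-induced genes. IRF3, IRF5 and IRF7 wait in the cytoplasm, are activated by kinases downstream of receptors for nucleic acids and microbes, and switch on interferon genes. Interferons then act through JAK kinases to assemble ISGF3, a complex that holds IRF9 and STAT2 and switches on antiviral genes and Irf7 itself. IRF1 and IRF2 bind the same elements, IRF1 mostly as an activator and IRF2 mostly as a repressor, whereas IRF4 and IRF8 are best known from lymphoid and myeloid cells.

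The family was uneven. Irf7 stood far above the rest at 7.20-fold higher on the FGF18 array, followed by Irf5 at 2.03-fold and Irf9 at 1.70-fold. Irf1 and Irf8 were 1.44- and 1.31-fold higher, Irf4 and Irf2 were at 1.13- and 1.06-fold, and Irf3 was 1.16-fold lower. At a fold of 2 or more, 2 of the 8 genes were higher, where 1.54% of all genes were, and 0 were lower, where 0.987% were. At 1.5-fold or more, 3 of the 8 were higher against 3.79% of all genes. The median log2 ratio, FGF18 minus PBS, was 0.46 over the 8 genes and -0.07 over all genes. All folds and log2 ratios here are of signals scaled to each array's 75th percentile, and all signals are given before scaling.

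**Figure D1:**
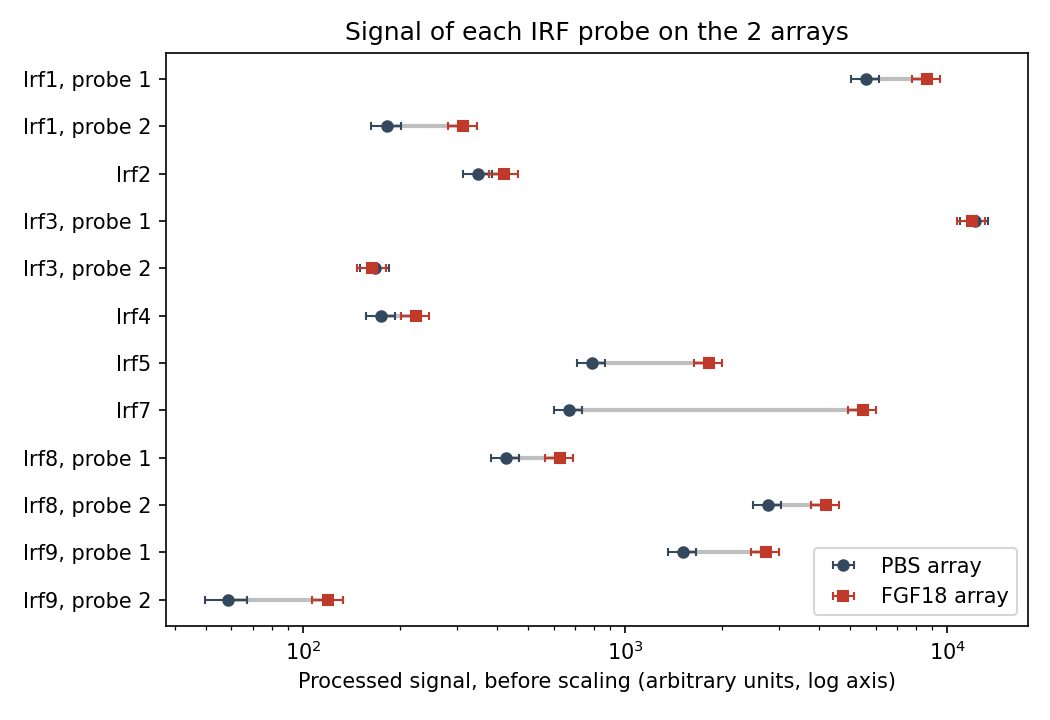
Processed signal of each of the 12 IRF probes on the PBS array (circles) and the FGF18 array (squares), on a log axis, before scaling; bars are the scanner software's error estimate for the spot, not a replicate error. The Irf7 probe has the longest distance between the arrays (670 and 5470), and the 2 arrays nearly coincide at both Irf3 probes.

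Among the factors that switch on interferon genes, Irf7 differed most and Irf3 least. Irf7 encodes the factor that amplifies the interferon response, and its 1 probe (A_51_P421876) read 5470 ± 547 with FGF18 and 670 ± 67.3 with PBS, where ± is the scanner software's own error estimate for that spot. The log2 ratio was 2.85, rank 22 of the 16610 genes, and 0.132% of genes had a ratio at least as high. Irf5, which acts downstream of Toll-like receptors in myeloid cells, read 1820 ± 182 with FGF18 and 790 ± 79.2 with PBS. Its log2 ratio of 1.02 ranked 245, just past the 2-fold limit, and it came from 1 probe as well.

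Irf3, the constitutive member that starts the response without needing new synthesis, was at nearly the same signal on both arrays. Its brighter probe read 11900 ± 1190 with FGF18 and 12200 ± 1220 with PBS. Its dimmer probe, designed to a thymus cDNA clone, read 164 ± 17.1 and 168 ± 17.6. The probes gave the same log2 ratio of -0.22, which is 0.15 below the median of all genes. Within these arrays the log2 ratio of Irf7 exceeded that of Irf3 by 3.06, a difference that a scaling constant cannot alter, and by 2.96 to 3.07 under the 11 alternative ways of processing.

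Irf9, the DNA-binding part of ISGF3, was higher on the FGF18 array by both of its probes. The brighter probe read 2730 ± 273 with FGF18 and 1510 ± 151 with PBS. The dimmer one read 120 ± 13.6 and 58.5 ± 8.80, not far above the lowest signals counted as above background (23.3 and 24.2). Their log2 ratios were 0.67 and 0.85, with a mean of 0.76 (rank 382), so Irf9, at 1.70-fold, fell short of the 2-fold limit. With normexp background correction the mean was 0.49.

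Irf1 and Irf2, the activator and the repressor on shared elements, differed from each other. Irf1 read 8640 ± 864 with FGF18 and 5580 ± 558 with PBS with its brighter probe. Its dimmer probe read 315 ± 32.0 and 182 ± 19.0, and the mean log2 ratio of both was 0.53 (rank 737). Irf2 read 422 ± 42.6 and 350 ± 35.5 by 1 probe, a log2 ratio of 0.09 that 25.2% of genes equalled or exceeded. The log2 ratio of Irf1 was 0.44 above that of Irf2, and 0.36 to 0.47 above it over the alternatives. For scale, 2 probes of 1 gene differed by a median of 0.16, with a 90th percentile of 0.56, so 0.44 is within what such probes can show.

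The lymphoid and myeloid members were higher by small amounts. Irf8, which directs the development of monocytes and dendritic cells, read 4200 ± 420 with FGF18 and 2780 ± 278 with PBS with its brighter probe. The dimmer probe read 628 ± 63.1 and 427 ± 43.1, and the mean log2 ratio was 0.39 (rank 1153). Irf4, known from lymphocytes, dendritic cells and also melanocytes, read 224 ± 22.9 and 175 ± 18.1 by 1 probe. Its log2 ratio of 0.17 was equalled or exceeded by 17.1% of genes.

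**Figure D2:**
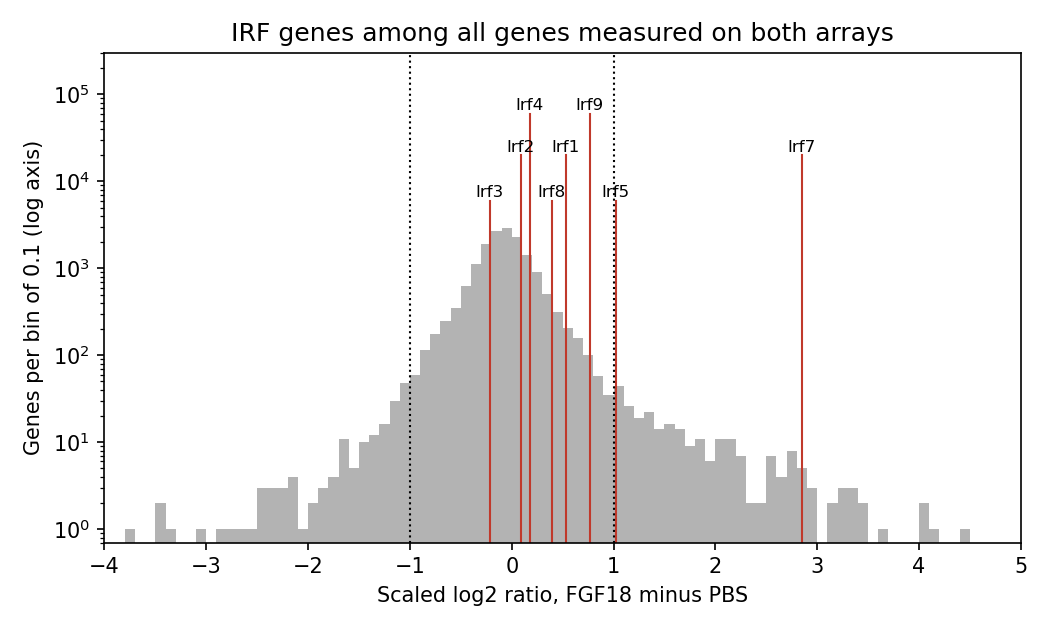
Number of genes (log axis) by scaled log2 ratio of FGF18 over PBS, in bins of 0.1, for 16610 genes measured on both arrays, with the 8 IRF genes as red lines and the 2-fold limits dotted. Irf7 at 2.85 lies in the thin upper tail, Irf5 at 1.02 on the limit, and Irf3 at -0.22 left of the peak.

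Technical error could be judged from repeated measurements of other kinds. Probes printed as at least 8 spots had a median SD, per spot, of the log2 ratio of 0.0316 at signals over 1000, 0.0695 from 100 to 1000 and 0.187 under 100. These repeats share the RNA and the labelling reaction, so they hold nothing of the spread between mice. The 4 IRF genes with 2 probes had gaps of 0.0012 to 0.18 between their log2 ratios, where 4183 genes with 2 measured probes had a median gap of 0.16 and a 90th percentile of 0.56. Neighbours in the order of log2 ratios were 1.83 apart for Irf7 and Irf5, 0.26 for Irf5 and Irf9, 0.23 for Irf9 and Irf1, 0.14 for Irf1 and Irf8, 0.22 for Irf8 and Irf4, 0.09 for Irf4 and Irf2 and 0.31 for Irf2 and Irf3. Irf1 and Irf8, and likewise Irf4 and Irf2, thus differed by less than the usual gap between probes of 1 gene. Irf2, Irf4, Irf5 and Irf7 each rest on 1 probe, printed as 1 spot.

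**Figure D3:**
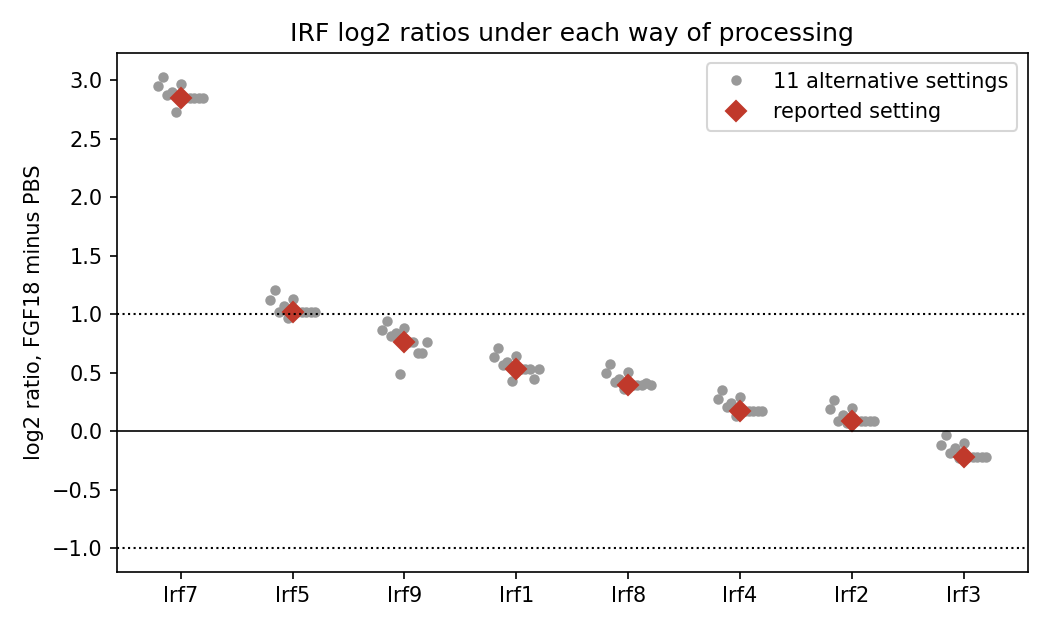
log2 ratio of FGF18 over PBS of each IRF gene in the reported setting (diamonds) and in 11 alternative settings (grey points), with the 2-fold limits dotted. Irf7 stays between 2.73 and 3.03 and Irf3 between -0.23 and -0.04, while Irf5 lies on either side of the limit (0.96 to 1.20).

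The promoters of the family carry the elements that interferon-activated factors are known to bind, in some members. RefSeq promoter windows of build GRCm38.p6, which run from 250 bases before to 50 bases after a start site, matched all 8 genes in 11 windows. They are of the C57BL/6J reference, not of C3H/HeN. On both strands, the windows were searched for a pair of GAAA repeats with 2 bases of any kind between them, as IRFs bind, and for TTCNNNGAA, the interferon-gamma-activated (GAS) element, which reads alike on both strands. Of 32851 windows of all genes, 3.44% held the former and 8.30% the latter. The windows of Irf1, Irf8, Irf2 and Irf7 are printed 5′ to 3′ on the gene's strand, the first 3 because they held a match, shown in capitals, and Irf7 because its ratio was highest.
Irf1: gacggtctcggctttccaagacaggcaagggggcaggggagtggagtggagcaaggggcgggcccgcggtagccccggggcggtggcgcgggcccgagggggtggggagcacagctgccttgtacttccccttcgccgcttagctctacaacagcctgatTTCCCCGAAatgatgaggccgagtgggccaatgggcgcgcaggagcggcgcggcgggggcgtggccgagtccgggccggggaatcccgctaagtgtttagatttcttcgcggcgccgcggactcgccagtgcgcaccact
Irf8: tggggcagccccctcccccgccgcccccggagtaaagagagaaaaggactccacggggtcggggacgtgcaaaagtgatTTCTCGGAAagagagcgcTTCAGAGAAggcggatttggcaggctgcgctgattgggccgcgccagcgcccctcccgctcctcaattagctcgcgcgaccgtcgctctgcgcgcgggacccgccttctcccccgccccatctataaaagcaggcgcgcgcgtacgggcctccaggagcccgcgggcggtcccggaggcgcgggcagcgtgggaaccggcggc
Irf2: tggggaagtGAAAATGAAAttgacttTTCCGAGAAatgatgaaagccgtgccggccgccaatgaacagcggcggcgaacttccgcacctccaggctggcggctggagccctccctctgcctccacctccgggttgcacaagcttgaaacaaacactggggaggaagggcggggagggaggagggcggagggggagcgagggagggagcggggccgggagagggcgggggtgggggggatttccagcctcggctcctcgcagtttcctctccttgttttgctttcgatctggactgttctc
Irf7: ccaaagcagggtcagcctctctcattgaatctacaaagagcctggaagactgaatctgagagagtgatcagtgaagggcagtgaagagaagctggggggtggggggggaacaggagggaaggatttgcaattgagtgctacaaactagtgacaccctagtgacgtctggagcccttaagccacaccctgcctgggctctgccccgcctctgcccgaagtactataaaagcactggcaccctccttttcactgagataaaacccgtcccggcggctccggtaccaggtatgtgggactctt

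The Irf1 window (chr11:53769764-53770063, plus strand) held TTCCCCGAA from -90 to -82 relative to the start site. The first Irf8 window (chr8:120736108-120736407, plus strand) held TTCTCGGAA from -171 to -163 and TTCAGAGAA from -153 to -145. The Irf2 window (chr8:46739495-46739794, plus strand) held GAAAATGAAA from -241 to -232 and TTCCGAGAA from -224 to -216, and no matches overlapped. The Irf7 window (chr7:141266375-141266674, minus strand) held neither set of letters, and nor did those of Irf3, Irf4, Irf5 and Irf9 or the second windows of Irf1 and Irf8. Matches were thus present in Irf2, at a log2 ratio of 0.09, and not in the printed window of Irf7, at 2.85, which describes these windows alone.

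Among genes placed upstream of the family by their known role, the RIG-I-like sensors of viral RNA were higher. Tbk1 and Ikbke, kinases that act on IRF3 and IRF7, were within 1.5-fold, as were 15180 of all 16610 genes. Whether any of these genes differed before the IRFs, or in answer to interferon, was not tested. Of 24 sensors, adaptors and kinases, 22 were measured on both arrays (not Tlr8 and Ticam2), with a median log2 ratio of 0.11. At least 2-fold higher were 4, against 1.54% of all genes, and 0 were lower by that much, against 0.987%. Those 4 were Zbp1, a sensor of Z-form nucleic acid (6.65-fold), Dhx58 (3.35-fold), Ddx58 (2.26-fold) and Ifih1 (2.25-fold), the latter 3 encoding the RIG-I-like RNA helicases. The lowest were Irak4, a kinase of the Toll-like receptor pathway, at a log2 ratio of -0.64 and dim signals of 66.1 and 90.8, and Sting1, the adaptor of DNA sensing, at -0.36. The kinases of IRF3 and IRF7, Tbk1 and Ikbke, and the adaptor Mavs, named after their values were seen, were at 0.10, 0.37 and 0.08.

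Interferon transcripts themselves were dim. Ifnb1, the gene of interferon beta, was well above background on the FGF18 array only, with a signal of 75.9 against 6.47, which is at least 2.77-fold higher. Ifng, the gene of interferon gamma made by T and NK cells, likewise passed on the FGF18 array only, with 65.1 against 17.0, which is at least 2.37-fold higher. Each bound sets the bright signal against the higher of the dim signal and that array's floor. Ifnab and Ifnl3 were measured on both arrays at log2 ratios of -0.36 and -0.46, and Ifna2, Ifna4, Ifna5, Ifnk and Ifne were not well above background on either array; Ifna1 matched no probe name. Interferon alpha genes are nearly identical in sequence, so a probe of 1 can read its relatives.

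Interferon receptor genes differed little, with a median log2 ratio of 0.24 over 6 genes and 0 past 2-fold. Of all genes measured on both arrays, only 1.54% were past 2-fold in the higher direction and 0.987% in the lower. The chains of the type I receptor, Ifnar2 and Ifnar1, were at 0.43 and 0.36, those of the lambda receptor, Il10rb and Ifnlr1, at 0.26 and 0.23, and those of the gamma receptor, Ifngr1 and Ifngr2, at -0.07 and -0.19. Of 9 genes of the JAK-STAT step, 1 was higher past 2-fold, against 1.54% of all genes, and 0 were lower by that much, against 0.987% (median 0.22). It was Usp18, a feedback inhibitor of the type I receptor, at 4.41-fold higher. Stat2, a partner of IRF9 in ISGF3, was 1.53-fold higher, next to the 1.70-fold of Irf9. The phosphatase gene Ptpn6 was at 0.34, from 2 probes that disagreed (0.04 and 0.64), and the receptor kinase gene Tyk2 at 0.23. The inhibitor Socs1, which the IRF1 target list below also holds, at 0.09 and the phosphatase gene Ptpn2 at -0.12 were lowest.

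Genes of proteins that bind IRFs mostly stayed under 2-fold, as did most genes: 1.54% of all genes were higher past it and 0.987% lower. Of 14 partner and corepressor genes, 13 were measured on both arrays, with a median of 0.11, and 1, Batf2, a partner of IRF1, was past 2-fold at 2.56-fold higher. The count was 2 under 7 of the 11 alternatives, with Spib added under 5 of them and Spi1 under 2, and the median ran from 0.03 to 0.29. Spib, an ETS factor that pairs with IRF4 and IRF8, was at 0.92 with dim signals of 85.4 and 39.8, and Trim21, a ubiquitin ligase that acts on IRFs, was at 0.76, followed by Irf2bpl at 0.23. Irf2bp2 and Irf2bp1, corepressors of IRF2, were lowest at -0.45 and -0.32. Spi1, the gene of PU.1, was above background on the FGF18 array only, at 26.0 against 9.15, too near the floor for a fold.

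Downstream, genes driven through ISGF3 were higher almost throughout. Past 2-fold were 18 of 20 such genes, 0 of them lower, where 1.54% of all genes were higher and 0.987% lower. The list's median log2 ratio was 2.34, and Rsad2, Ifit3, Mx1 and Ifit1 led it (10.6-, 10.4-, 8.83- and 6.66-fold). Ifi35 and Adar, at 1.89- and 1.79-fold, were lowest. The 2 probes of Adar disagreed, at log2 ratios of 0.50 and 1.18, on either side of the 2-fold limit. Known IRF1 targets ranged from level to much higher, with a median of 0.64 over 17 of 19 genes (not Il12b and Nos2, which were dim on both arrays). Past 2-fold were 5 in the higher direction, against 1.54% of all genes, and 0 in the lower, against 0.987%. Those 5 were Cxcl10 (7.56-fold), Cxcl9 (4.54-fold), Gbp2 (3.99-fold), the checkpoint ligand gene Cd274 (2.42-fold) and, named after its value was seen, the immunoproteasome gene Psmb10 (2.02-fold). Casp1, the inflammasome caspase gene, and Ciita, the master regulator of MHC class II genes, were lowest at 0.08 and -0.07. Many of these genes also answer to other interferon-activated factors, so neither list belongs to 1 factor.

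**Figure D4:**
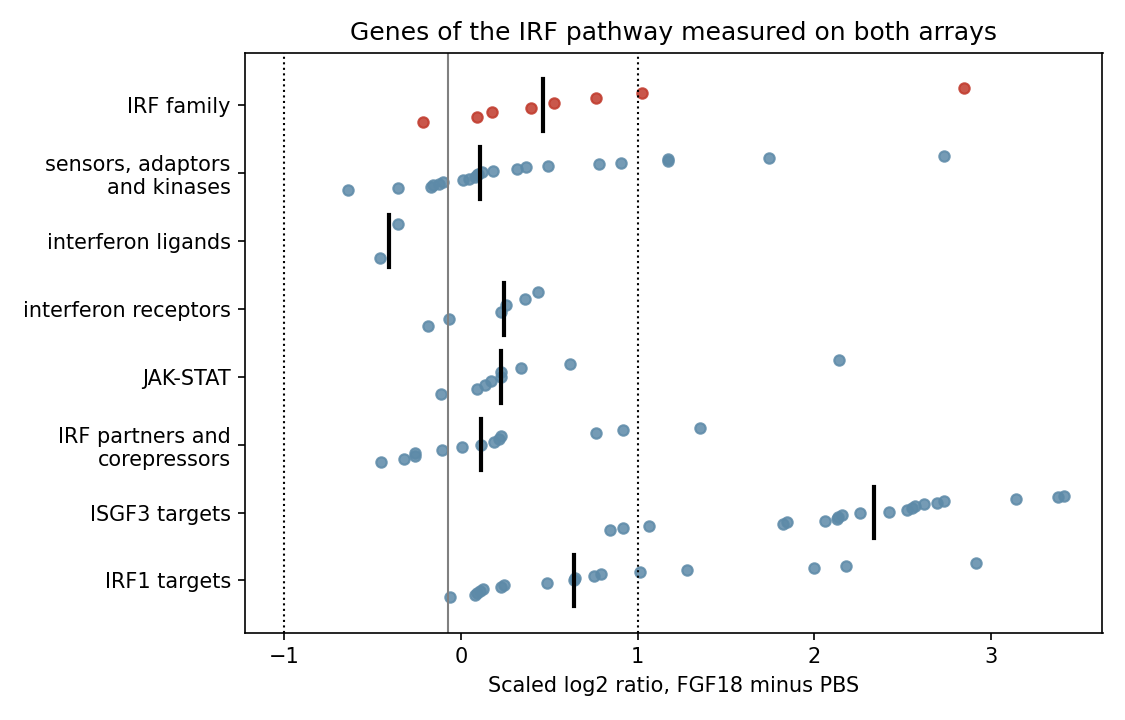
Scaled log2 ratio of FGF18 over PBS for each gene of the IRF family (red) and of 7 pathway lists (blue) measured on both arrays; black bars are list medians, the grey line is the median of all genes (-0.07) and dotted lines are 2-fold. ISGF3 targets centre on 2.34, and the IRF family, at 0.46, is spread from -0.22 to 2.85.

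Several IRFs are made by leukocytes, and in whole skin more cells of a type and more RNA per cell cannot be told apart. General leukocyte markers had a median log2 ratio of 0.48 over 4 genes, from Ptprc (0.69) to Laptm5 (-0.02), beside 0.39 for Irf8, and their signals summed to 20900 with FGF18 and 13500 with PBS. These sums, here and for the lists that follow, are of unscaled signals over all measured probes, so a gene with several probes counts once per probe. After scaling, the ratios of these sums, FGF18 over PBS, were 4.46 (NK cell), 1.59 (macrophage), 1.37 (leukocyte), 1.24 (melanocyte) and 1.14 (neutrophil). They were 0.902 (plasmacytoid dendritic cell), 0.878 (keratinocyte), 0.875 (B cell), 0.861 (dendritic cell), 0.786 (fibroblast) and 0.743 (T cell). Without Fcgr1 the macrophage ratio was 0.87, and without S100a8 the neutrophil ratio was 0.897. NK cell markers were the highest, with a median of 1.74 over the 3 of 7 measured on both arrays, from Klrd1 (1.00) to Gzmb (4.44), and a summed signal of 2510 against 496, or 1080 against 438 without Gzmb. Ncr1, Klrb1c and Gzma passed on the FGF18 array only, with lower bounds of 3.90-, 1.63- and 19.1-fold that make no allowance for spot error. Klrb1c was dim there too, at 44.7. As these genes entered only through the array where they were high, they add nothing to the ranking of this list. Eomes was dim on both arrays. Macrophage markers went both ways, with a median of 0.14 over 7 genes, from Mrc1 (-0.70) to Fcgr1 (2.72), and a summed signal of 25800 against 14200. The difference in that sum rests on Fcgr1, the high-affinity IgG receptor gene, without which it was 12100 against 12300. The part of these cells in the IRF ratios was not tested.

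Dendritic cell markers, of a lineage that needs IRF8 and IRF4, were not higher as a group. Their median was -0.16 over 9 genes, from Cd209a (-0.70) to Zbtb46 (0.28, from 2 probes that disagreed, at -0.12 and 0.68). Their summed signal was 39800 with FGF18 and 40800 with PBS. Cd74, named after its value was seen, alone gave 17000 and 17300 of these sums. Cd209a read only 75.3 and 108, so the sums say little of such dim markers. Of plasmacytoid dendritic cell markers, the defining Siglech was not well above background on either array. Bst2, itself interferon-induced and also an ISGF3 target above, was at 1.82 and Ly6d at -0.39. Tcf4, named after its value was seen, was at -0.30, with probes from -0.76 to 0.38. The summed signal was 64300 and 62800, or 50600 and 59400 without Bst2. Most of the latter was Ly6d alone, at 47500 and 55000, so with Siglech dim these sums say little of this cell type. Of B cell markers, Cd79a, Ms4a1 and Pax5 were not well above background on either array, and the 3 measured ran from Blnk (-0.20) to Cd79b (0.28), summing to 7050 and 7110. T cell markers had a median of -0.47 over 4 genes, from Cd4 (-0.68, at dim signals of 42.2 and 59.5) to Cd3d (-0.29). They summed to 649 and 769, while Cd8a was dim on both arrays, and Trac matched no probe name.

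Melanocyte markers, beside which Irf4 can be read, had a median of 0.28 over 7 genes, against 0.17 for Irf4. They ran from Slc45a2 (-0.20) to Tyr (0.69, at dim signals of 51.5 and 28.1), and summed to 94400 and 67300. Neutrophil markers had a median of 0.12 over 5 genes, from Cxcr2 (-0.61, at dim signals of 30.2 and 40.6) to S100a8 (1.82). They summed to 3470 and 2680, or 2480 and 2440 without S100a8, and Ly6g matched no probe name. Keratinocyte markers had a median of -0.06 over 7 genes, from Krt10 (-0.39) to Krt14 (0.02), and summed to 667000 and 670000. Fibroblast markers had a median of -0.47 over 6 genes, from Col1a2 (-0.75) to Pdgfra (-0.19), and summed to 535000 and 600000. Their part in the IRF ratios was likewise not tested.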

How the data were processed

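Full-thickness dorsal skin of the FGF18 and PBS groups was measured on 1 Agilent single-colour (Cy3) array each, on 1 slide and in 1 scan. Groups were taken from the source names. Per the file headers, images were read with Feature Extraction 9.5.3.1, protocol GE1-v5_95_Feb07, array design 014868. The deposited intensity values are, per the file headers, the spot's mean, its local background and a background-subtracted, detrended processed signal with its error. The deposited files also hold flags and spot numbers, per the file headers (unit other). The series value table holds a ratio in the authors' deposited values: the processed signals over the column's values gave that array's median throughout (83.8 for FGF18 and 80.0 for PBS; largest log2 departures 0.00764 and 0.0078; column medians 1.00 and 0.999), on a linear scale, not centred by gene and in the same direction.

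Control and outlier-flagged spots were left out. From log2 of the processed signal each array's 75th percentile (1020 for FGF18 and 899 for PBS) was subtracted. A probe was measured if well above background in 0.5 or more of its spots; this held for all 12 IRF probes on both arrays. Log2 ratios of a gene's probes were averaged, and a single gene's signal is the geometric mean over its probes, whereas summed signals of marker lists run over all measured probes; sums without the gene of highest ratio were added after the data were seen. Probes were named through RefSeq (GRCm38.p6), 23360 by accession, 6738 by symbol and 2906 by a synonym, with 8161 keeping the file's name. The files give no genome build and no probe sequences. Feature Extraction signals near background are replaced by a surrogate, so dim genes are limited. Python 3.11.15, pandas 2.3.3, numpy 2.4.6, matplotlib 3.10.9, R 4.3.3 and limma 3.58.1 (alternatives alone) were used, and the counting was tested on simulated data. No p-value is given.

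The members and lists were chosen with earlier results of these data known, and 2 genes of the lists are not reported here. Genes named were the 8 members, the 4 highest and 2 lowest of each pathway list with any measured on 1 array, and the highest and lowest of each cell type list; others are marked. The rule also named the 3 genes nearest to Irf7 in signal; they are not given, as levels of different probes are not comparable.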

Additional observations from a re-analysis of the deposited data

How the results depend on the processing

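No paired analysis was possible because each group is 1 array. The 11 alternatives in scaling, background correction, source of values, filter on dim probes and choice of probe left Irf1, Irf2, Irf4, Irf5, Irf7, Irf8 and Irf9 above 0 and Irf3 below 0. The number of IRF genes at least 2-fold apart was 2 in all of them except normexp background correction, where it was 1 (Irf7, with Irf5 at 0.96); it was also 1 at a threshold of 3-fold, and 3 at 1.5-fold. The median log2 ratio of the family was 0.56 with median scaling, 0.64 without scaling and 0.58 with the series value table; these add a constant to every gene, as the median of all genes, -0.07 in the reported setting, was then 0.03, 0.11 and 0.04. Relative to the median of all genes, the family's median was 0.53 in the reported setting and in these 3, 0.49 with normexp and 0.64 without a filter on dim probes. Irf9 ranged from 0.49 to 0.95 and Irf1 from 0.43 to 0.71. A single member's value counted as moved where it shifted by more than the technical SD of its signal class. List medians counted as moved past about 0.0695, the SD from 100 to 1000, whatever the signals of the list. Of the other values, 40 of single members and 37 of list medians moved, and 48 and 39 did not. Of list counts, 9 moved by over 1.5 times (7 of the partner list and 2 of the ligand list) and 67 did not. The ligand counts rose from 0 to 2 and 3 when dim probes were let in. No value past 2-fold changed direction. With normexp, Ddx58 and Eif2ak2 were no longer past 2-fold. Without a filter on dim probes, Ddx58, Dhx58 and Cd274 were not. Oas3 was not counted where signals over 100 were required on both arrays. Eif2ak2 and Oas3, both ISGF3 targets, were named after their values were seen. Over the alternatives the counts past 2-fold ran from 3 to 5 for the sensor list. They ran from 17 to 20 for ISGF3 targets and from 4 to 5 for IRF1 targets. Signals near the floors of 23.3 and 24.2 limit the dimmer Irf9 probe and the interferon genes. The cause of the other shifts was not tested.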
